A study of Mus musculus with 18 samples.

Results

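Expression of 10 Kruppel-like factor (KLF) genes was followed in marrow-derived mesenchymal stem cells (MSC), adherent marrow progenitors with fat and bone fates. The genes were Klf2, Klf3, Klf4, Klf5, Klf6, Klf7, Klf9, Klf10, Klf13 and Klf15, chosen by symbol from the 54347 genes of the RNA-seq count table, and all 10 were found in it, each as 1 row. The choice was made with earlier results of these data known, and 7 other KLF genes are described further below. The MSC came from male C57BL/6J mice and were measured in 6 groups of 3 libraries. In the first experiment cells stayed without treatment (control) or received either CK666, which blocks branching of actin by the Arp2/3 complex, or CytoD (cytochalasin D), which blocks growth of actin filaments at their fast-growing end. All cells of the second experiment were transfected. They received a control siRNA (siControl), an siRNA against the nuclear actin-related protein Arp4 (siArp4), or the Arp4 siRNA and CK666 together (siArp4+CK666). The labels name no experiment, and the split into 2 experiments was made here by transfection. No group with the control siRNA and CK666 was analysed here, so the effect of CK666 in siArp4 cells could be set only beside its effect in untransfected cells. The study's methods call the 3 libraries of a group distinct preparations, and its reporting summary states that a primary line made in the laboratory served throughout, so the libraries are not separate animals and the p-values measure the spread between preparations of that line.

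KLF proteins are transcription factors that bind GC-rich and CACCC elements of promoters through zinc fingers at their carboxyl end, and they fall into subgroups by the partners that they bind. KLF2, KLF4, KLF5, KLF6 and KLF7 act largely as activators that recruit acetyltransferases, KLF3 is a repressor that recruits CtBP, and KLF9, KLF10 and KLF13 recruit the Sin3A corepressor. Several have known roles in the fat lineage, where KLF2, KLF3 and KLF7 hold back adipogenesis and KLF4, KLF5, KLF6, KLF9 and KLF15 promote it at successive steps. KLF2 and KLF4 are also known as genes induced by fluid shear through the kinase ERK5 and MEF2 factors, and KLF9 and KLF15 as early targets of glucocorticoids.

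Promoter sequences are shown for the 5 genes whose calls the results below turn on. A window of 220 bases, from 250 to 31 bases before the RefSeq start site (GRCm38.p6), was read on the strand of the gene, and 8 of the 10 genes had an entry, Klf5 and Klf10 having none. Capitals mark GGGCGG (the GC box core), CACCC and TAAATTTA (a MEF2 core), each searched on both strands. The windows lie at chr8:72318812-72319031 (plus strand) for Klf2, chr4:55532506-55532725 (minus strand) for Klf4, chr13:5861239-5861458 (plus strand) for Klf6, chr19:23140976-23141195 (plus strand) for Klf9 and chr6:90462326-90462545 (plus strand) for Klf15.
Klf2: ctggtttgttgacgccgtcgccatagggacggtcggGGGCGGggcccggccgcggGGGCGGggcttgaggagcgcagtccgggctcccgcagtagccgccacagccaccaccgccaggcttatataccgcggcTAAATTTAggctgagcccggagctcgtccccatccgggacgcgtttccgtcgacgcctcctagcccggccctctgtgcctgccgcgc
Klf4: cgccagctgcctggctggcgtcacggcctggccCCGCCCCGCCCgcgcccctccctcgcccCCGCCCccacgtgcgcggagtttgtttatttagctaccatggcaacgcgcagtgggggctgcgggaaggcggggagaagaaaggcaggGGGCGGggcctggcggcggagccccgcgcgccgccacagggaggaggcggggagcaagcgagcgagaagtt
Klf6: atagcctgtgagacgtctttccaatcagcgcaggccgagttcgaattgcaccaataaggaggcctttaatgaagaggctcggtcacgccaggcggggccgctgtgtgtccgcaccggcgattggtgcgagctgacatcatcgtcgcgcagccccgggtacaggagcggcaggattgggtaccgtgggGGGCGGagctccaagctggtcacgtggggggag
Klf9: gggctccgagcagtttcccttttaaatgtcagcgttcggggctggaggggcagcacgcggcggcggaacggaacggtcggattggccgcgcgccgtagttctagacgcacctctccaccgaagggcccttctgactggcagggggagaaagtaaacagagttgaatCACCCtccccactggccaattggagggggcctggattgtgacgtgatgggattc
Klf15: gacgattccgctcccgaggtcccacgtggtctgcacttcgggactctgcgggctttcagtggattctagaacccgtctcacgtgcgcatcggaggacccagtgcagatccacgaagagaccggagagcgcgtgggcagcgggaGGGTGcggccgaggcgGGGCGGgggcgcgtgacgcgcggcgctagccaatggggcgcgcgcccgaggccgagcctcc

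GGGCGG was present in 7 of the 8 windows (all but Klf9) and in 28.5% of 32851 promoter windows of the same length. The windows of the 8 genes held between 60% and 79.1% G and C, above the median of 51.8% over all windows, and the share with GGGCGG was not compared at matched base composition. CACCC was present in 4 windows (Klf3, Klf7, Klf9 and Klf15) and in 47.8% of all. The Klf4 window held 4 matches to GGGCGG, of which 2 share 1 base. TAAATTTA was found in Klf2 alone, at 117 to 110 bases before the start, and in 0.444% of all windows. No window of the 8 genes held TGACGTCA (1.14% of all windows), GGAATG (11.4%) or a CArG box (1.30%), and CACGTG, present in 5.01% of all, occurred in Klf4, Klf6 and Klf15. The matches describe letters in these windows and were not tested for binding.

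Total estimated counts ran from 18075610 to 24733212 per library. Knockdown was checked on Actl6a, the gene of Arp4, which fell from 895.8 ± 208.9 normalized counts in siControl (SD, n = 3) to 41.7 ± 20.1 in siArp4 and 16.8 ± 6.76 in siArp4+CK666. Of 12 marrow mesenchymal markers 8 or 9 were present at a mean of at least 1 CPM (counts scaled to library size) in every group, with Thy1 at 0 throughout. Of 8 haematopoietic and macrophage markers, summed at 7.41 to 19.6 CPM against 4891 to 14701 for the mesenchymal ones, the pan-leukocyte gene Ptprc was at 0 in all groups other than siArp4+CK666. The 8 endothelial markers summed to 0.692 to 12.5 CPM with Cdh5 at 0 in every library, and the 6 epithelial markers to at most 0.304. The libraries differed in how counts depended on transcript length. The log2 deviation of a library from its group mean changed by 0.36 per doubling of transcript length in siControl replicate 1, by -0.31 in siControl replicate 2, by -0.23 and 0.17 in CK666 replicates 1 and 2 and by 0.18 and -0.18 in siArp4+CK666 replicates 1 and 3, but by at most 0.04 in size in control and CytoD. Where a fit with this trend removed ended a call given here, that value stands beside it. Macrophage genes set siArp4+CK666 replicate 3 apart, with Lyz2 at 188.6 normalized counts against 19.0 and 19.1 in the other libraries of its group and Adgre1 at 12.7 and Tyrobp at 6.32 against 0. In siControl replicate 2 Csf1r stood at 181.1 against 18.4 and 38.3. The part of these libraries' macrophage transcripts in the KLF results was not tested, and the values without each library are given where they change a call of a KLF gene.

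**Figure D1:**
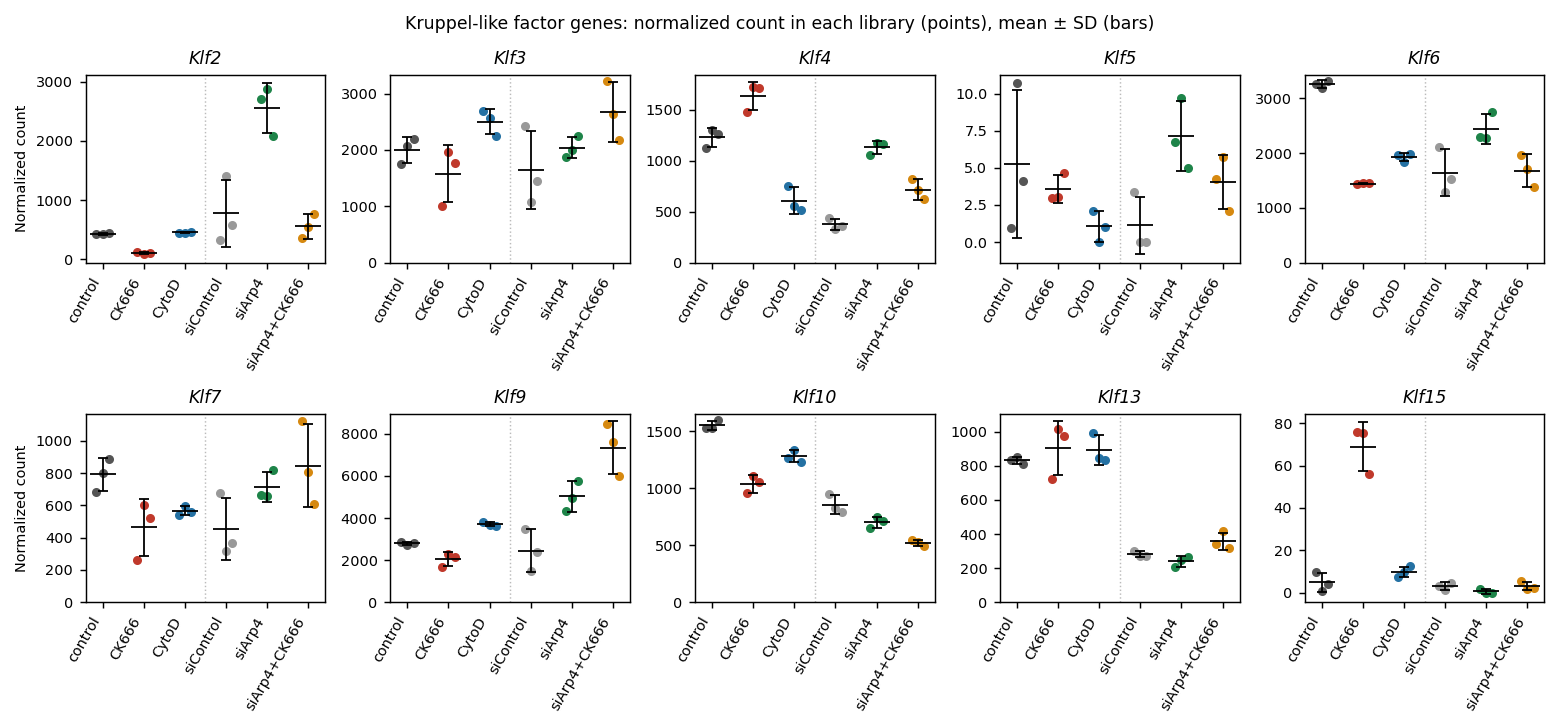
Normalized count (vertical axis, linear, scaled separately for each gene) of the 10 KLF genes in every library. Points are libraries, bars are mean ± SD (n = 3), and the dotted line parts the experiments, which were normalized separately. The 3 CK666 libraries lie at 86.7 to 119.9 for Klf2, under all control libraries, and siArp4 at 2083 to 2881.

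On a length scale, in CPM per kilobase of exon (mean ± SD, n = 3), the KLF transcripts of control cells were led by Klf6 at 35.9 ± 0.687, which held 27.3% of the summed level of the 10 genes. Klf9 came next at 28.1 ± 0.594, then Klf4 at 19.5 ± 1.62 and Klf10 at 17.98 ± 0.452, whose ranges overlapped. Klf2 stood at 11.4 ± 0.402 and Klf3 at 8.63 ± 1.02. Klf13 and Klf7, whose ranges overlapped, lay at 5.35 ± 0.158 and 4.72 ± 0.620. Klf15 and Klf5 were nearly absent, at 0.0844 ± 0.0722 and 0.0487 ± 0.0452. The place of Klf3 depends on which exons are counted, since with the longest transcript as gene length it stood at 18.6. The order differed in each group. Klf4 led in CK666 (26.8 ± 3.08, range overlapping that of Klf9), Klf9 in CytoD (39.6 ± 1.62) and in siArp4+CK666 (74.7 ± 15.1), and Klf2 in siArp4 (66.6 ± 10.3, range overlapping that of Klf9). In siControl, where the libraries spread widely, the ranges of 7 neighbouring pairs from Klf9 down to Klf13 overlapped. The summed level of the 10 genes was 131.7 ± 3.69 in control, 96.9 ± 13.7 in CK666, 122.3 ± 6.02 in CytoD, 89.9 ± 22.1 in siControl, 184.3 ± 7.03 in siArp4 and 144.7 ± 21.1 in siArp4+CK666. In bulk RNA a change in RNA per cell and a change in the share of cells that express a gene cannot be told apart.

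**Figure D2:**
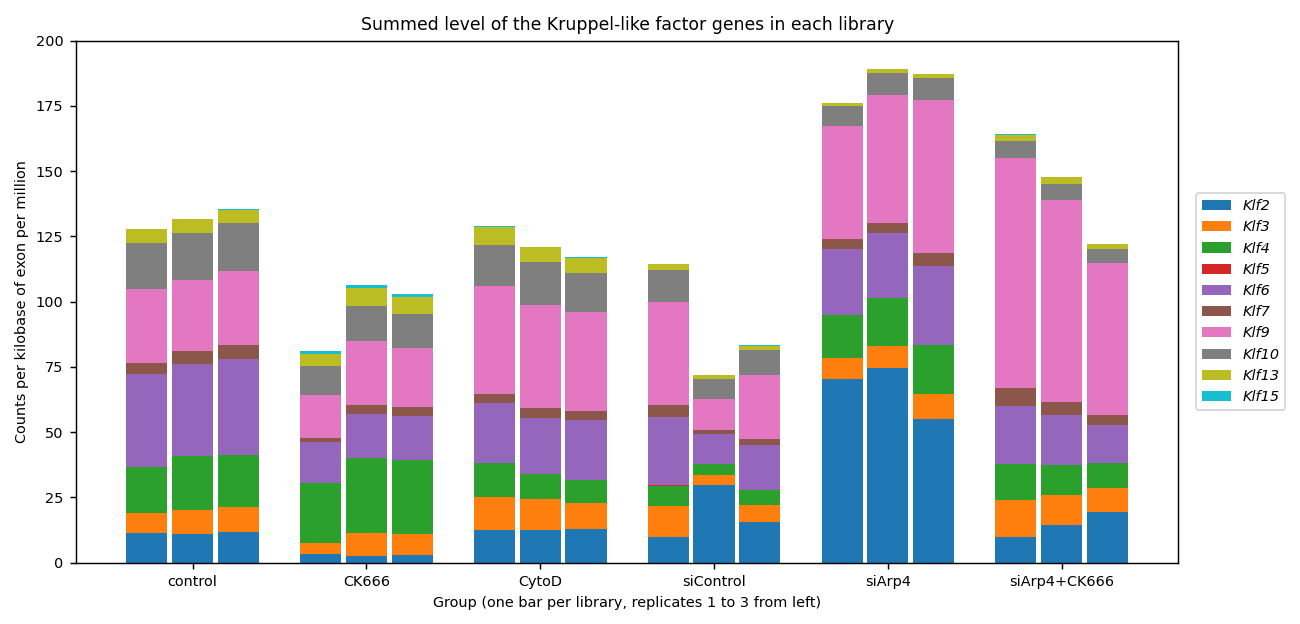
Level of each KLF gene in CPM per kilobase of exon (vertical axis, stacked by gene), 1 bar per library and 3 bars per group. The siArp4 bars reach 176.2 to 189.3 with Klf2 or Klf9 as the widest segment, and the control bars 128.0 to 135.4 with Klf6 as the widest.

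A gene was called where it changed more than 2-fold at an adjusted p below 0.01 (DESeq2 Wald test over all genes). Against control, CK666 raised 1 of the 10 KLF genes (Klf15) and lowered 2 (Klf2 and Klf6), where 4.89% of all genes tested were called higher and 6.06% lower. CytoD lowered 1 (Klf4) and raised 0, where 4.32% of all genes were called lower and 4.8% higher. Set against CytoD, CK666 had 2 genes higher (Klf4 and Klf15) and 1 lower (Klf2), where 5.08% of all genes were called higher and 6.74% lower. Relative to siControl, siArp4 raised 3 (Klf2, Klf4 and Klf9) and lowered 0, where 6.69% of all genes were called higher and 9.49% lower, and siArp4+CK666 raised 1 (Klf9) and lowered 0, where 8.06% were called higher and 12.4% lower. Between siArp4+CK666 and siArp4, Klf2 was lower, with 4.12% of all genes lower and 1.63% higher. The median log2 fold change of the 10 genes was -0.51 for CK666 against control (0.01 over all genes tested), -0.11 for CytoD (0.01), -0.29 for CK666 against CytoD (-0.03), 0.61 for siArp4 (-0.05) and 0.52 for siArp4+CK666 (-0.05) against siControl, and -0.09 for siArp4+CK666 against siArp4 (0.02). The comparisons with a control share their control libraries within each experiment and so are not independent. These counts and medians hold for the 10 chosen genes only. Outside them, 2 other KLF genes (Klf12 and Klf16) were called lower in siArp4 and in siArp4+CK666.

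**Figure D3:**
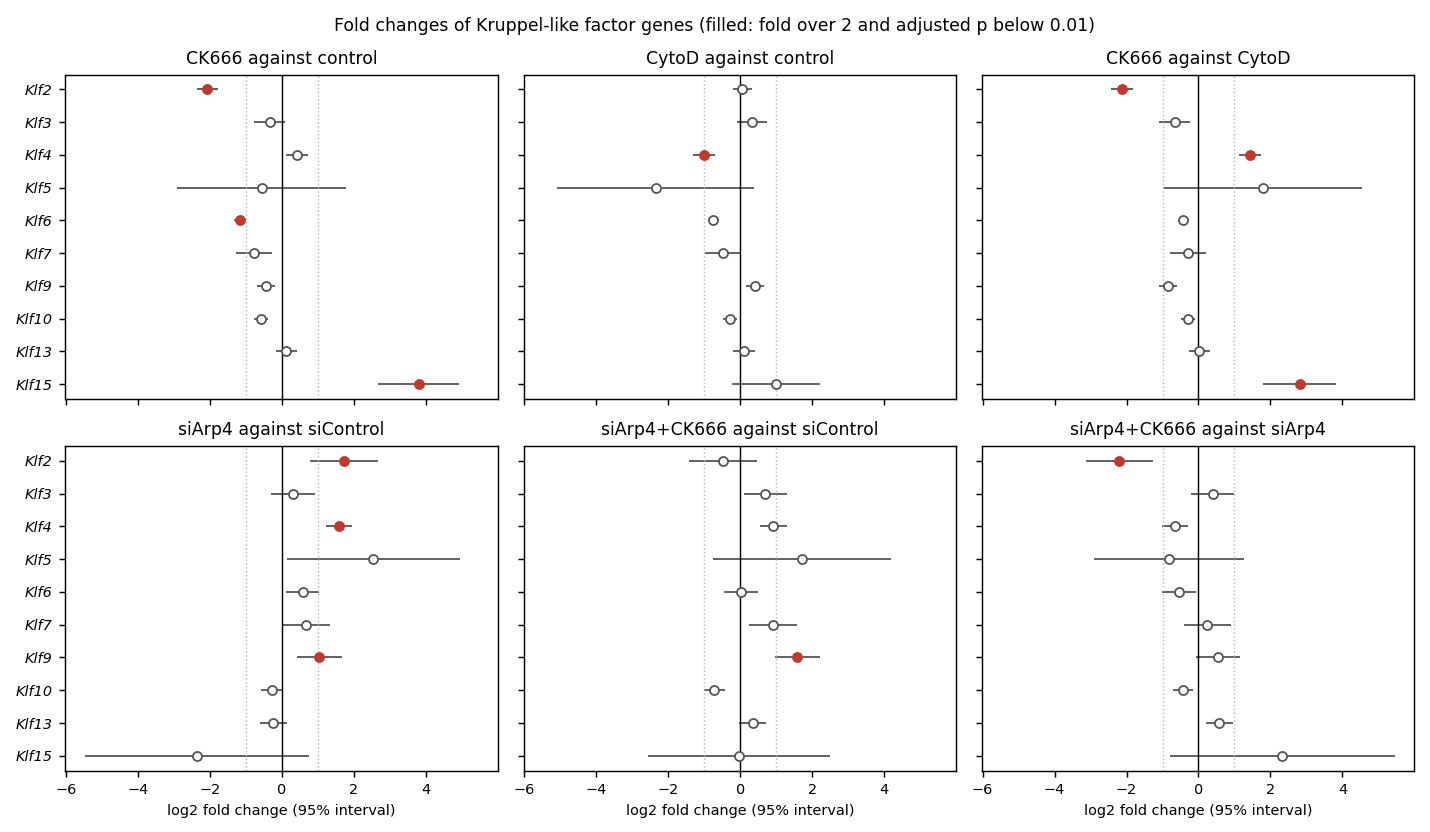
Log2 fold change (horizontal axis) of each KLF gene (rows) with its 95% interval in the 6 comparisons within an experiment. Filled points passed both limits, and dotted lines mark a 2-fold change. Klf2 sits near -2 in all 3 panels that set a CK666 group against the same cells without it or against CytoD, and Klf5 has the widest intervals in the first experiment.

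Klf2 (ENSMUSG00000055148.7, chr8:72319033-72321656, plus strand, GRCm38), the shear-responsive factor, fell with CK666 in both settings and was raised by the Arp4 siRNA. Its normalized counts were 434.3, 419.7 and 452.2 in control, 119.9, 86.7 and 104.2 in CK666, and 447.4, 450.1 and 464.7 in CytoD. All CK666 libraries lay under all others of that experiment, while control and CytoD overlapped. CK666 lowered Klf2 4.20-fold against control (log2 -2.07, SE 0.15, adjusted p = 3.36e-39) and 4.38-fold against CytoD (log2 -2.13, SE 0.15, adjusted p = 1.32e-41). CytoD and control differed by 0.06 (95% interval -0.21 to 0.33, adjusted p = 0.771). In transfected cells the counts were 333.6, 1402 and 587.5 in siControl, 2703, 2881 and 2083 in siArp4, and with siArp4+CK666 357.4, 542.7 and 769.3. The siArp4 libraries lay above the rest, and the siControl and siArp4+CK666 ranges overlapped. Klf2 rose 3.30-fold with siArp4 (log2 1.72, SE 0.48, adjusted p = 0.00154) and was 4.59-fold lower in siArp4+CK666 than in siArp4 (-2.20, SE 0.48, adjusted p = 7.92e-05). The difference between siArp4+CK666 and siControl was -0.48 (95% interval -1.41 to 0.46, adjusted p = 0.458), and 0.27 (adjusted p = 0.565) without siControl replicate 2.

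For Klf2 the siControl libraries spread widely. siControl replicate 2, with the highest Klf2 count, was the library in which short transcripts were most over-represented, and Klf2 has the shortest exon length of the 10 genes at 1847 bases. Without that library the siArp4 rise was 2.46 (adjusted p = 2.28e-11), and with the length trend removed it was 2.01 (adjusted p = 6.39e-08). The call was lost without siControl replicate 3 (1.55, adjusted p = 0.0189), siArp4 replicate 1 (1.69, adjusted p = 0.0124) or siArp4 replicate 2 (1.63, adjusted p = 0.0159), and in the quasi-likelihood test of edgeR (adjusted p = 0.0261). That test also did not call the fall from siArp4 to siArp4+CK666 (adjusted p = 0.0253), which was called without each single library in DESeq2 (-2.51 to -1.96). The fall with CK666 in untransfected cells ranged from -2.18 to -1.95 without each single library of that experiment and was called in edgeR as well (adjusted p = 3.38e-06).

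Klf4 (ENSMUSG00000003032.8, chr4:55527143-55532466, minus strand), which promotes early adipogenesis and pluripotency, fell with CytoD and rose with siArp4. Its counts were 1122, 1306 and 1260 in control, 1483, 1721 and 1713 in CK666, and 757.8, 554.7 and 515.2 in CytoD. The 3 groups did not overlap, with CK666 above control and CytoD below it. CytoD lowered Klf4 by a log2 of -1.01 (SE 0.16, adjusted p = 2.64e-09), just past the 2-fold limit, and CK666 against control stayed under it at 0.41 (SE 0.16, adjusted p = 0.0243). Set against CytoD, CK666 had 2.69-fold more Klf4 (1.43, SE 0.16, adjusted p = 6.79e-18). The CytoD fold fell under the limit without control replicate 2 (-0.97), control replicate 3 (-0.999), CytoD replicate 2 (-0.95) or CytoD replicate 3 (-0.91), and with the length trend removed (-0.98), each at an adjusted p no higher than 4.28e-06. In transfected cells the counts were 440.1, 332.0 and 362.4 in siControl, 1062, 1174 and 1163 in siArp4, and with siArp4+CK666 822.6, 710.6 and 622.8. The siArp4 libraries were the highest and the siControl libraries the lowest, again without overlap. Klf4 was 2.99-fold higher in siArp4 than in siControl (1.58, SE 0.18, adjusted p = 4.40e-16), a call that held without each single library (1.49 to 1.70) and in edgeR (adjusted p = 0.000234). In siArp4+CK666 it exceeded siControl by 0.92 (SE 0.19, adjusted p = 4.79e-06), under the 2-fold limit, which it passed without siControl replicate 1 (1.05) or siArp4+CK666 replicate 3 (1.02).

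Klf5 (ENSMUSG00000005148.8, chr14:99298691-99315036, plus strand), which acts downstream of the C/EBP factors in fat cells, was nearly silent, with at most 10.7 normalized counts in any of the 18 libraries. It was at 0 in CytoD replicate 2 and in siControl replicates 2 and 3. DESeq2 gave it an adjusted p in 3 of the 6 comparisons within an experiment, the lowest being 0.0956 for siArp4 against siControl, so no change was detectable at this depth.

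Klf6 (ENSMUSG00000000078.7, chr13:5861482-5870394, plus strand), a widely expressed early-response factor, was lowered by CK666 in untransfected cells. Its counts were 3263, 3180 and 3326 in control, 1428, 1460 and 1448 in CK666, and 1961, 1837 and 1992 in CytoD. The groups were tight and did not overlap, control being highest and CK666 lowest. CK666 lowered Klf6 2.25-fold (log2 -1.17, SE 0.08, adjusted p = 2.11e-48), which stayed between -1.19 and -1.16 without each single library. Tested against a fold of 2 itself, this change was not called (adjusted p = 0.582). For CytoD the difference from control was -0.75 (SE 0.08, adjusted p = 1.13e-20) and for CK666 against CytoD -0.42 (SE 0.08, adjusted p = 1.11e-06), both under the 2-fold limit. In transfected cells it stood at 1643 ± 426.0 in siControl, 2442 ± 267.0 in siArp4 and 1683 ± 296.0 in siArp4+CK666, with no call. The siArp4 libraries lay above both other groups, by 0.57 over siControl (adjusted p = 0.0508), while siControl and siArp4+CK666 overlapped.

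Klf7 (ENSMUSG00000025959.13, chr1:64029447-64122282, minus strand), a relative of Klf6 that holds back adipocyte differentiation, was not called in any comparison within an experiment. It stood at 792.1 ± 102.4 in control, 463.8 ± 178.0 in CK666 and 565.9 ± 27.7 in CytoD. CK666 against control gave -0.77 (SE 0.25, adjusted p = 0.00757), which reached -1.001 (adjusted p = 0.000199) without CK666 replicate 2 and -0.49 without CK666 replicate 1. Klf7 is among the longer genes here at 8131 exon bases, and its lowest CK666 count, 263.3, came from replicate 1, the CK666 library with the fewest long transcripts. In transfected cells it stood at 452.2 ± 193.8 in siControl, 713.4 ± 92.9 in siArp4 and 847.7 ± 259.7 in siArp4+CK666, and without siControl replicate 1 both differences from siControl were called, at 1.06 (adjusted p = 0.000568) and 1.31 (adjusted p = 1.09e-05). With the length trend removed they were 0.57 and 0.61, under the 2-fold limit.

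Klf3 (ENSMUSG00000029178.14, chr5:64803388-64832901, plus strand), the CtBP-dependent repressor, was also not called. It stood at 2003 ± 232.0 in control, 1578 ± 506.3 in CK666 and 2503 ± 223.7 in CytoD. CK666 lay below CytoD (log2 fold change -0.67, SE 0.22, adjusted p = 0.00672). In transfected cells it stood at 1649 ± 693.7 in siControl, 2038 ± 188.0 in siArp4 and 2674 ± 527.5 in siArp4+CK666. The difference of siArp4+CK666 from siControl, 0.70 (adjusted p = 0.0577), was called without siControl replicate 1 (1.08, adjusted p = 8.62e-06) and was 0.54 with the length trend removed. Exons of Klf3 overlap Gm20033 on the other strand, a gene with a mean count of 40.1 against 2097 for Klf3, and the libraries were not stranded.

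Klf9 (ENSMUSG00000033863.2, chr19:23141226-23168134, plus strand), a Sin3A-binding factor and glucocorticoid target, was raised in both Arp4 siRNA groups. In the first experiment its counts were 2842, 2707 and 2824 in control, 1665, 2307 and 2167 in CK666, and 3823, 3686 and 3615 in CytoD. The groups did not overlap, and CK666 lay below control and CytoD above it. Neither difference reached 2-fold, at -0.45 (SE 0.13, adjusted p = 0.00189) for CK666 and 0.41 (SE 0.13, adjusted p = 0.00477) for CytoD. Between the treatments the difference was -0.86 (SE 0.13, adjusted p = 2.09e-10). In transfected cells the counts were 3477, 1456 and 2398 in siControl, 4341, 4968 and 5780 in siArp4, and with siArp4+CK666 8458, 7597 and 5998. All siArp4+CK666 libraries lay above siArp4 (0.55, SE 0.31, adjusted p = 0.288) and all siArp4 above siControl. Klf9 was 3.01-fold higher in siArp4+CK666 than in siControl (log2 1.59, SE 0.31, adjusted p = 3.39e-06), called without each single library (1.32 to 1.93) and in edgeR (adjusted p = 0.00346). The siArp4 rise of 2.06-fold (1.04, SE 0.31, adjusted p = 0.00421) was less firm. It was not called without siControl replicate 2 (0.77), siControl replicate 3 (1.02), siArp4 replicate 1 (1.14), siArp4 replicate 2 (1.05) or siArp4 replicate 3 (0.93), nor in edgeR (adjusted p = 0.0271), and with the length trend removed it was 1.011 (adjusted p = 4.69e-05).

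Klf10 (ENSMUSG00000037465.10, chr15:38291463-38300706, minus strand), the TGF-beta-inducible early gene, lay lower in each treated group of the first experiment than in control, by less than 2-fold. Its counts were 1529, 1527 and 1597 in control, 954.0, 1108 and 1055 in CK666, and 1266, 1336 and 1232 in CytoD. The 3 groups were apart, with CK666 lowest. The differences from control were -0.58 (SE 0.10, adjusted p = 3.20e-08) for CK666 and -0.28 (SE 0.10, adjusted p = 0.0130) for CytoD. In transfected cells it stood at 855.9 ± 82.0 in siControl, 701.6 ± 48.4 in siArp4 and 520.4 ± 27.8 in siArp4+CK666, again without overlap. From siControl it differed by -0.29 in siArp4 (SE 0.15, adjusted p = 0.116) and by -0.72 in siArp4+CK666 (SE 0.15, adjusted p = 8.51e-06).

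Klf13 (ENSMUSG00000052040.10, chr7:63886351-63938915, minus strand), a further Sin3A-binding member, was not called within an experiment. It stood at 832.4 ± 21.6 in control, 905.7 ± 157.9 in CK666 and 893.8 ± 87.6 in CytoD, with overlapping ranges. The difference was 0.12 (95% interval -0.17 to 0.42) for CK666 and 0.10 (95% interval -0.19 to 0.40) for CytoD. In transfected cells it stood at 281.4 ± 18.4 in siControl, 239.3 ± 30.5 in siArp4 and 356.8 ± 51.4 in siArp4+CK666, without overlap, and the difference of siArp4+CK666 from siArp4 was 0.58 (SE 0.20, adjusted p = 0.0251).

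Klf15 (ENSMUSG00000030087.11, chr6:90462576-90475238, plus strand), a glucocorticoid target with roles in glucose and amino acid metabolism, rose with CK666 from near silence and stayed at or below 12.4 counts in every library of the other groups. Its counts were 9.67, 0.974 and 4.14 in control, 75.7, 75.4 and 55.8 in CK666, and 7.44, 9.68 and 12.4 in CytoD. CK666 lay apart from both other groups, which overlapped. The rise over control was 13.9-fold (log2 3.801, SE 0.58, adjusted p = 5.18e-10) and over CytoD 7.01-fold (2.81, SE 0.51, adjusted p = 3.74e-07). Since the control counts are so low the size of the rise is uncertain, with a 95% interval of 2.67 to 4.93 on the log2 scale, and without single libraries it ran from 3.31 to 4.77, the latter without control replicate 1. Even in CK666 the level, 1.23 ± 0.184 CPM per kilobase, was 1.29% of the summed KLF level. In transfected cells no library had more than 5.29 normalized counts, with 5.29, 1.91 and 2.11 in siArp4+CK666 against 1.68, 0 and 0 in siArp4, and no adjusted p was given there.

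The effect of CK666 in siArp4 cells minus its effect in untransfected cells was then tested over all 18 libraries, where Arp4 knockdown, transfection and experiment cannot be told apart. Of the 10 genes 1 was called lower (Klf4) and 0 higher, where 2.52% of all genes were called lower and 1.9% higher. For Klf4 the effect of CK666 was 0.41 in untransfected cells and -0.66 (SE 0.18, adjusted p = 0.00373) in siArp4 cells, and the difference was -1.08 (SE 0.22, adjusted p = 3.85e-05). It was under the 2-fold limit without siArp4+CK666 replicate 3 (-0.999, adjusted p = 0.000445), and edgeR called it (adjusted p = 0.00536). For Klf2 the effects were nearly equal, with a difference of -0.13 (95% interval -1.20 to 0.95, adjusted p = 0.922), an interval that reaches past a 2-fold difference on its lower side. For Klf9 the estimate turned from negative to positive, with a difference of 0.99 (SE 0.33, adjusted p = 0.0280) that was not called. Klf6 differed by 0.63 (SE 0.23, adjusted p = 0.0460) and Klf7 by 1.012 (SE 0.44, adjusted p = 0.116). Klf15, with few counts in transfected cells, differed by -1.533 (95% interval -4.245 to 1.179, adjusted p = 0.546). That interval is too wide to tell whether its rise with CK666 differs between the settings.

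**Figure D4:**
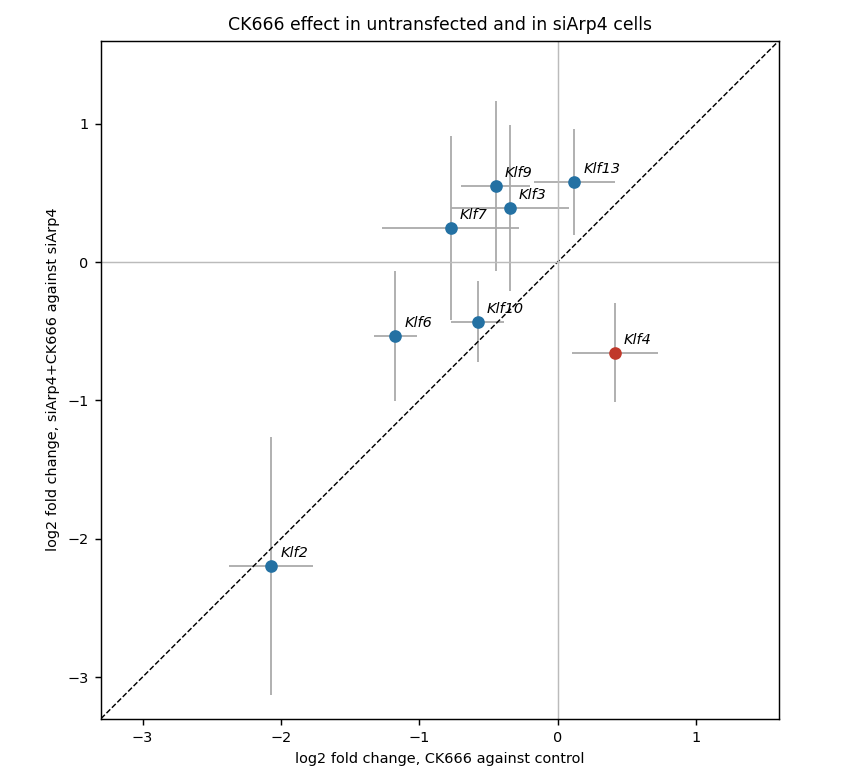
Log2 fold change of CK666 against control (horizontal axis) and of siArp4+CK666 against siArp4 (vertical axis) for 8 KLF genes, with 95% intervals and a dashed line of equal effects. Klf5 and Klf15, with few counts in transfected cells, are left out. Klf4, the gene called in the test of the difference, is in red at 0.41 and -0.66, and Klf2 lies next to the line at -2.07 and -2.20.

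Cells with the control siRNA and untransfected cells also differed. Of the 10 genes 2 were lower in siControl than in control (Klf4 and Klf13) and 0 higher, where 10.1% of all genes were called lower and 14.1% higher. On the common scale of all 18 libraries Klf4 stood at 380.9 ± 51.0 in siControl and 1197 ± 96.5 in control (log2 fold change -1.65, SE 0.16, adjusted p = 2.91e-23). Klf13 stood at 283.7 ± 16.0 and 810.1 ± 20.8 (-1.51, SE 0.16, adjusted p = 4.33e-20), and at -0.98 with the length trend removed, under the 2-fold limit. Across the 10 genes the median was -0.78, beside 0.04 over all genes tested. Klf6 (-0.94, adjusted p = 4.35e-08) and Klf10 (-0.81, adjusted p = 3.12e-16) were lower by less than 2-fold. Klf2 (0.89, adjusted p = 0.0404) and Klf7 (-0.76, adjusted p = 0.0294) were not called, and with the length trend removed they stood at 0.32 (adjusted p = 0.353) and -0.16 (adjusted p = 0.445). Klf2 stood at 0.12 without siControl replicate 2. Without siControl replicate 1, the library with the most long transcripts, Klf2 was called higher (1.26, adjusted p = 0.000356) and Klf6 (-1.15, adjusted p = 1.08e-16) and Klf7 (-1.16, adjusted p = 0.000224) lower. Transfection and experiment cannot be told apart in this comparison.

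The shares of all genes called and their medians, given above for each comparison, serve also for the gene lists that follow. Among 7 other KLF genes, 3 had an adjusted p against control in the first experiment and 0 were called, while in the second 4 had one and 2 were called lower in each siRNA group. Klf16 stood at 586.0 ± 146.4 in siControl, 274.1 ± 23.0 in siArp4 and 239.9 ± 55.3 in siArp4+CK666 (log2 fold changes -1.09, adjusted p = 0.000218, and -1.29, adjusted p = 8.01e-06). Klf12 stood at 26.8, 157.2 and 41.1 in the siControl libraries, 8.64 ± 2.28 in siArp4 and 8.24 ± 4.74 in siArp4+CK666, so its fall of -3.11 (adjusted p = 0.000193) in siArp4 was -1.98 (adjusted p = 0.0130), and no longer called, without siControl replicate 2. Klf16 was also under the 2-fold limit in siArp4 without that library (-0.90). Klf11, the closest relative of Klf10, stood between 291.7 ± 28.0 and 417.8 ± 51.3 in the 6 groups and was not called.

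The related SP factors, which bind the same GC boxes, gave 0 calls of 7 tested against control in the first experiment. Against siControl 2 of 6 were called higher in siArp4 (Sp4 and Sp6) and 1 in siArp4+CK666 (Sp4), where 6.69% and 8.06% of all genes were. Sp6 rose from 4.35 ± 4.20 to 43.9 ± 2.59 (log2 3.22, adjusted p = 5.99e-07). Sp4 stood at 139.2, 35.2 and 44.8 in siControl and 234.0 ± 78.9 in siArp4 (1.67, adjusted p = 0.00667), and its call was lost without each of siControl replicates 2 (1.34) and 3 (1.41), siArp4 replicates 2 (1.72) and 3 (1.38) and siArp4+CK666 replicate 2 (1.67), and in siArp4+CK666 (1.86, adjusted p = 0.00178) without siControl replicate 3 (1.602) or siArp4+CK666 replicates 1 (1.62) or 2 (1.79). Of 11 corepressors and coactivators of KLF proteins, 0 were called with CytoD, siArp4 or siArp4+CK666 against their controls. With CK666 2 were called lower, where 6.06% of all genes were. They were Fhl3, a LIM-domain partner of KLF3, which fell from 847.0 ± 42.3 to 393.4 ± 30.3 (-1.11, adjusted p = 3.75e-20), and the acetyltransferase gene Kat2b, which fell from 1395 ± 201.0 to 687.5 ± 98.0 (-1.02, adjusted p = 2.98e-08) but was under the 2-fold limit without control replicate 3 or CK666 replicate 1 (-0.90 each) and with the length trend removed (-0.99). Fhl3 was also lower in siArp4+CK666 (406.8 ± 70.9) than in siArp4 (868.6 ± 62.0).

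Upstream of Klf2 and Klf4, the 10 genes of the ERK5 and MEF2 pathway gave 0 calls of 9 tested for CK666, CytoD and siArp4 against their controls, with medians of 0.05, -0.10 and -0.05 beside 0.01, 0.01 and -0.05 over all genes tested. In siArp4+CK666 1 of 9 was called higher (median 0.28), Mef2d at 2723 ± 243.7 against 1056.5 ± 190.6 in siControl (1.36, adjusted p = 1.15e-13). The kinase gene Mapk7, which encodes ERK5, differed from control by 0.05 (adjusted p = 0.819) in CK666.

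Of 10 genes known as targets of KLF2 and KLF4, CK666 raised 1 and lowered 1 of 7 tested (median -0.23), CytoD raised 1 of 6 (median 0.13), siArp4 raised 2 of 8 (median -0.18) and siArp4+CK666 raised 1 of 8 (median -0.23). Of all genes, 4.89%, 4.8%, 6.69% and 8.06% were called higher in these comparisons, and 6.06% lower with CK666. The medians over all genes tested were 0.01, 0.01, -0.05 and -0.05. S1pr1, a KLF2 target in lymphocytes and endothelium, stood at 876.4, 820.9 and 919.0 in control, 141.5, 197.8 and 222.3 in CK666 and 1134 ± 33.7 in CytoD (CK666 against control -2.22, SE 0.16, adjusted p = 1.08e-42). Its CK666 libraries were lowest, as for Klf2. Thbd, the thrombomodulin gene, was highest in siArp4, at 2403 ± 194.5 against 668.8 ± 203.1 in siControl (1.84, SE 0.25, adjusted p = 2.74e-12). In siArp4 cells, however, S1pr1 went from 1185 ± 31.9 to 806.5 ± 25.01 with CK666, a difference of -0.56 that was not called (adjusted p = 0.0150). Nqo1, an oxidative stress gene, was raised in all 4 comparisons with a control, from 684.5 ± 13.7 to 1846 ± 14.7 in CK666 and 1450 ± 38.6 in CytoD and from 447.0 ± 40.0 to 3607 ± 69.3 in siArp4 and 2364 ± 18.7 in siArp4+CK666.

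The glucocorticoid response list holds the receptor gene Nr3c1 and known targets of that receptor, which also induces KLF9 and KLF15. With CK666 8 of 9 tested genes, Nr3c1 among them, had lower estimates and 1 a higher one. The median was -0.54, beside 0.01 over all genes tested. Of the 9, 3 were called lower and 1 higher, where 6.06% and 4.89% of all genes were. Mt2, a metallothionein, rose from 603.1 ± 44.2 to 7651 ± 2286 (3.67, SE 0.19, adjusted p = 7.66e-84), while Errfi1 (-2.66, adjusted p = 1.18e-154), Per1 (-1.29, adjusted p = 1.10e-06) and Sgk1 (-1.51, adjusted p = 5.21e-07) fell. With CytoD 2 of 9 fell, Fkbp5 (-1.09, adjusted p = 9.45e-22) and Sgk1 (-1.75, adjusted p = 4.06e-09). Estimates were higher for 4 genes and lower for 5, and the median was -0.86 beside 0.01 over all genes tested. With siArp4 0 of 9 were called, and 8 had higher estimates and 1 a lower one (median 0.41). With siArp4+CK666 Mt2 rose (2.56, adjusted p = 1.84e-11) and Errfi1 fell (-1.41, adjusted p = 1.97e-21). There 4 estimates were higher and 5 lower, with a median of -0.07. Over all genes tested the median was -0.05 in both comparisons.

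In the adipogenic cascade in which KLF factors act, CK666 raised 1 and lowered 1 of 10 genes. The median was 0.65, beside 0.01 over all genes tested. Cebpb, whose promoter is a known KLF4 target, rose from 1689 ± 131.1 to 5075 ± 1913 (1.59, SE 0.23, adjusted p = 6.19e-11), and Egr2, the known partner of KLF4 on it, fell from 137.5 ± 32.0 to 41.8 ± 7.33 (-1.72, SE 0.28, adjusted p = 7.53e-09). CytoD raised 1 of 9 (median 0.02), Cebpa at 12286 ± 818.0 against 6025 ± 362.1 in control (1.03, adjusted p = 2.94e-18), a fold that was under the limit without control replicate 2 (0.99) or CytoD replicate 3 (0.975). With the Arp4 siRNA 1 of 9 was called in each direction, with medians of -0.64 without CK666 and -0.23 with it. Over all genes tested the median was -0.05 in both. Egr2 fell in siArp4 (-2.13, adjusted p = 5.68e-13) and siArp4+CK666 (-2.97, adjusted p = 5.67e-21), and Gata2 rose in siArp4 (1.43, adjusted p = 0.000134) and siArp4+CK666 (1.16, adjusted p = 0.00247). The Gata2 call in siArp4+CK666 was lost without siControl replicate 2 (1.04) or 3 (1.14) or siArp4+CK666 replicate 2 (1.12) or 3 (0.98).

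Genes of the TGF-beta pathway were set beside Klf10 as genes of the same signal. With CK666 Tgif1, a corepressor of SMAD proteins, rose from 1520 ± 80.8 to 3531 ± 189.4 (1.22, adjusted p = 3.43e-37), and with CytoD Ltbp1, which holds latent TGF-beta in the matrix, fell (-1.12, adjusted p = 2.73e-37). In siArp4 Smad7, the inhibitory SMAD, rose (1.39, adjusted p = 3.66e-36) and Tgfb1 fell (-1.30, adjusted p = 6.06e-05, but -0.95 without siControl replicate 2). In siArp4+CK666 Tgif1 rose (1.28, adjusted p = 3.04e-08), and Tgfb1 (-1.63, adjusted p = 1.94e-07) and Ltbp1 (-1.02, adjusted p = 2.45e-11) fell. Ltbp1 was under the limit there without siControl replicate 1 (-0.94) or siArp4+CK666 replicate 3 (-0.96).

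Markers of other cell types moved in places beside the KLF genes, and their part in the results was not tested. With CK666 the endothelial gene Vwf was called higher, at 59.9, 106.0 and 233.4 against 12.6, 48.7 and 39.3 in control (1.99, adjusted p = 0.000643, not called without CK666 replicate 3 at 1.31), while Cdh5, Cldn5, Emcn and Tie1 were at 0 in all libraries. Kdr was called higher in siArp4+CK666 (23.4 ± 2.10 against 3.79 ± 1.84, log2 2.67, adjusted p = 0.000396). Of the macrophage list Cd14 fell with CK666 (47.1 ± 5.76 against 111.4 ± 9.62), where Cd68 was higher without a call (82.1 ± 9.96 against 41.8 ± 12.5, log2 0.97, adjusted p = 0.00185), and Cd68 (112.1 ± 0.712 against 41.8 ± 12.5) and Lyz2 (74.8 ± 12.2 against 35.4 ± 9.62) rose with CytoD, Lyz2 losing its call without any 1 of 8 of the 9 libraries. Of 10 mesenchymal markers tested, 9 had lower estimates with CK666 (median -0.65 beside 0.01 over all genes tested), and the summed level of the list was 4891 to 6005 CPM in CK666 against 9783 to 10503 in control. Col1a1 and Ly6a were called lower in CK666 (Ly6a not without control replicate 1, at -0.98, or CK666 replicate 3, at -0.97), and Cxcl12 higher and Cd44 lower in CytoD (Cd44 not with the length trend removed, at -0.97). In siArp4 Col1a1 and Ly6a were called higher and Cxcl12 lower, and in siArp4+CK666 Cxcl12, Ly6a, Cd44 and Eng lower. The 6 epithelial markers were too low for a test.

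The genes whose levels ran closest to the most often called KLF genes were looked up over all 18 libraries, after the mean of each experiment was subtracted from log2(normalized count + 1). Klf2 was called in 4 of the 6 comparisons within an experiment, Klf4 in 3, and Klf15 and Klf9 in 2 each. Of these last, Klf15 was taken for its larger fold change. Nearest to Klf2 among 9914 genes were Map7d1 (Pearson r = 0.985), S100a16 (0.964) and S100a11 (0.959). Nearest to Klf4 were Paqr8 (0.971), Osgin2 (0.960) and Smad7 (0.955), and nearest to Klf15 among 9915 genes were Armc10 (0.919), Matn2 (0.883) and Gpt2 (0.871). The libraries share their groups, their depth and the length trend, and for Klf15 the 3 CK666 libraries set the pattern, so these values only describe likeness across these samples.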

How the data were processed

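RNA-seq was measured in 18 libraries, 3 for each of 6 groups, grouped by their GEO labels. The authors quantified unstranded paired reads with Salmon 1.2.1 against GRCm38 (mm10) with GENCODE annotation and deposited estimated counts per gene, where reads shared by similar sequences are divided by a model. How transcript estimates were summed to genes is not given in the sources used here. Counts were rounded to whole numbers. Totals were 18075610 to 24733212 per library. Sampling error weighs most for Klf5 and Klf15, which have few counts. It was not small beside the spread between libraries in every group of the other members. Examples are Klf6 in CK666 (mean 1445.4, SD 15.8) and Klf2 in CytoD (mean 454.1, SD 9.29).

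Each experiment (9 libraries) was fitted alone with DESeq2 1.42.0 (R 4.3.3), median-ratio size factors and the Wald test with Benjamini-Hochberg adjustment over all genes. A gene was called at an absolute log2 fold change over 1 and an adjusted p below 0.01, the study's rule. Comparisons across experiments used all 18 libraries. Intervals are 95% intervals of the fitted fold change. No pair of replicates agreed within sampling noise (the lowest chi-square per degree of freedom was 6.47). edgeR 4.0.16 (quasi-likelihood), TMM factors, a filter on low counts (10 in 3 libraries), other fold change rules, a replicate block, omission of each library and removal of each library's trend on transcript length were alternatives, the last chosen after seeing the data. The fits were tested on simulated data. The 10 members and all gene lists were chosen with earlier results of these data known. List genes are named where they were called against a control of their own experiment, and the likeness search covered genes with a mean of at least 100 normalized counts. Mapk7 and Klf11 were named after their values were seen. Counts over the TGF-beta list are not reported here.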

Additional observations from a re-analysis of the deposited data

Results flagged for a closer look

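A test of the difference between the CK666 effects in siArp4 cells and in untransfected cells (DESeq2, adjusted over all genes) called 4 higher and 4 lower of the 88 member and list genes tested, where 1.9% of all genes were called higher and 2.52% lower. Knockdown, transfection and experiment cannot be told apart in it. For Klf4 the difference was -1.077 on the log2 scale, from 0.41 in untransfected cells to -0.66 in siArp4 cells, and it was called in 17 of 18 fits that left out 1 library. Ly6a differed by -3.048, with a fall of -1.06 in untransfected cells and of -4.10 in siArp4 cells. Nqo1 differed by -2.046, from 1.43 to -0.61. S1pr1 differed by 1.66, from -2.22 to -0.56, and Cxcl12 by 1.356, from -0.75 to 0.61. These 4 were called in 18 of 18 such fits. Pdgfrb differed by 1.014, from -0.93 to 0.09, called in 14 of 18 (and not with the length trend removed, at 0.84). Mt2 differed by -1.514, from 3.67 to 2.15, called in 9 of 18 fits, and Cd14 by 1.325, from -1.24 to 0.09, called in 10 of 18. The calls of these 3 were lost with control, CK666, siArp4 or siArp4+CK666 libraries left out, at values of 0.86 to 0.99 for Pdgfrb, -1.59 to -1.24 for Mt2 and 1.198 to 1.341 for Cd14.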

How the results depend on the processing

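No called member reversed its direction under any alternative run. With no fold change minimum the members called were 6 for CK666 against control, 3 for CytoD against control, 7 for CK666 against CytoD, 3 for siArp4+CK666 against siControl, 2 for siArp4+CK666 against siArp4 and 4 for siControl against control. Over all genes tested, in that order, the calls higher and lower were 2230 and 2151 of 14597, 1871 and 2196 of 13717, and 2542 and 2237 of 15038. For the last 3 comparisons they were 2159 and 2443 of 15415, 539 and 856 of 14098, and 3150 and 2953 of 14491. Tested against a fold of 2 the members called were 0 for CytoD against control, siArp4 and siArp4+CK666 against siControl, siArp4+CK666 against siArp4 and the difference between the CK666 effects, 1 for CK666 against CytoD and for siControl against control, and 2 for CK666 against control, where Klf6 lost its call. Over all genes tested the calls higher and lower, in that order, were 74 and 73 of 13717, 185 and 246 of 14976, 234 and 558 of 14098, 30 and 115 of 14976, and 17 and 41 of 18908 where no member was called. They were 219 and 219 of 15038 for CK666 against CytoD, 354 and 277 of 15467 for siControl against control, and 145 and 204 of 15038 for CK666 against control. The edgeR test called 1 for siArp4 against siControl (Klf4) and 0 for siArp4+CK666 against siArp4. Removal of the length trend, chosen after seeing the data, left 0 for CytoD against control and 1 for siControl against control. Klf6 held 24.4% of the summed control level with the longest transcript as gene length. On the exon length used in the report it held 26.9% to 27.5% without 1 control library. Leaving out 1 library at a time gave 3 to 4 calls for CK666 against control, 0 to 1 for CytoD against control, 1 to 4 for siArp4 and 1 to 4 for siArp4+CK666 against siControl, 0 to 1 for the difference between the CK666 effects and 2 to 5 for siControl against control. Of 900 member results with 1 library left out, 878 kept their side of the threshold, 13 lost a call and 9 gained one.

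Whether the replicate numbers pair the samples is not stated in the labels. Deviations of same-numbered libraries correlated from -0.658 to 0.796 across groups, and not every library correlated best with its own number. The libraries also differ in the length trend, which enters these correlations, so they cannot decide the pairing. A replicate block changed no call of a member, with 3, 1 and 3 calls in the first experiment, 3, 1 and 1 in the second and 1 for the difference between the CK666 effects. For siControl against control no block could be fitted. Klf5 and Klf15 are limited by depth, with at most 10.7 and, outside CK666, 12.4 normalized counts.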
